A study of Mus musculus with 26 samples.

Results

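Mouse embryonic fibroblasts carrying the reprogramming factors Pou5f1, Sox2 and Klf4 (OSK) were compared at day 3 with fibroblasts carrying the same factors and Jun (OSK+cJun). The product of Jun, c-Jun, is 1 of the proteins that form the transcription factor AP-1. Each group had 2 libraries, so 4 of the 26 libraries of the series entered the contrast. Of the 18198 genes in the table, the 13202 with a value of 10 or more in at least 2 of these 4 libraries were tested, and the remaining 4996 were not. Both groups were reprogramming cells made by infecting fibroblasts within 2 passages with retrovirus from PlatE packaging cells, and the added Jun was the labelled difference. The labels do not say whether the OSK cells received a control virus, whether a library came from cells in iCD1 or in ESC medium, or whether replicates were separate cultures. The p-values rest on the spread within all 13 groups of the series, and that spread between libraries may be technical. The other libraries of the series are from fibroblasts (MEF), from iPSC (reprogrammed stem cells), from ESC (embryonic stem cells), from OSK cells at days 0, 1, 5 and 7, OSK+cJun cells at days 0, 1 and 7, and OSK cells with a hairpin against Sap30 at day 7.

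Reprogramming turns a differentiated cell into a pluripotent one, with loss of the fibroblast program and gain of epithelial and then pluripotency genes. AP-1 is a dimer of Jun and Fos family proteins that binds a short DNA element, TGACTCA, at many fibroblast enhancers and at genes that answer growth factors. Forced Jun is known as a barrier to reprogramming by OSK.

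The deposited values are a normalised score with an equal distribution across libraries, so sequencing depth is unknown and no counting interval can be given. The totals lay between 4619641 and 4624161. The top value, 21544, was held by 10 genes per library. High values come in steps that several genes share, so equal values in replicates are common there. Across the genes tested, log2(value + 1) correlated at 0.935 between the OSK+cJun libraries and at 0.947 between the OSK libraries, against 0.847 to 0.881 between libraries of different groups. These correlations are across genes, which are not independent replicates. Differences below are OSK+cJun minus OSK in mean log2(value + 1), n = 2 libraries per group, with limma's standard error (SE) and its Benjamini-Hochberg adjusted p over all 13202 genes. A gene was called, and is said to have risen or fallen, at an adjusted p below 0.05 with a log2 difference of at least 1 in size. On this scale the change of genes with values near 0 is understated.

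Jun itself (chr4:95049034-95052222 of GRCm38, minus strand, protein coding) stood at 7721 and 6929 in the OSK+cJun libraries and at 536 and 425 in the OSK libraries. It rose by 3.94 (SE 0.37, adjusted p = 5.78e-06), with both OSK+cJun libraries far above both OSK libraries. The factors shared by both groups were not called. Pou5f1 read 21544 and 11663 with cJun and 21544 in both without (log2 difference -0.44, SE 0.98, adjusted p = 0.868), so 3 of its 4 values were at the top of the scale. Sox2 read 6116 in both with cJun and 8974 in both without (-0.55, SE 0.48, adjusted p = 0.561). Klf4 read 7715 and 6923 against 11663 and 11662 (-0.67, SE 0.50, adjusted p = 0.478). Transcripts of the delivered and the endogenous genes cannot be told apart in these values. Myc, whose product is a further classical reprogramming factor, read 92 and 77 against 152 and 179 (-0.96, SE 0.83, adjusted p = 0.566). Sap30, a Sin3 deacetylase complex subunit, read 62 and 60 against 93 and 140 (-0.89, SE 0.32, adjusted p = 0.0812). Groups did not overlap for Sox2, Klf4, Myc or Sap30, as held for 55.7% of all genes tested.

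In all, 1165 genes were called, 8.82% of those tested. Of these, 635 rose with cJun (4.81%) and 530 fell (4.01%), and 304 of the increases and 246 of the decreases had a log2 difference of at least 2. The libraries of the groups did not overlap for any called gene. The median difference was 1.93 over the genes that rose, -1.91 over those that fell and -0.04 over all genes tested. Of the genes tested, 487 passed the filter on low values through 1 group alone, 241 through OSK+cJun and 246 through OSK, and 215 of these were called. Among called members of the lists below, Pparg, Krt6a, Bmp6, Mfap5 and Zim1 passed through OSK+cJun alone. Mmp15, Tet1, Gsta3 and 5 pluripotency genes passed through OSK alone. The count for the cJun effect at day 3 was 750 without OSK+cJun replicate 1, 809 without replicate 2, 755 without OSK replicate 1 and 705 without replicate 2, and 463 genes were called each time.

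**Figure D1:**
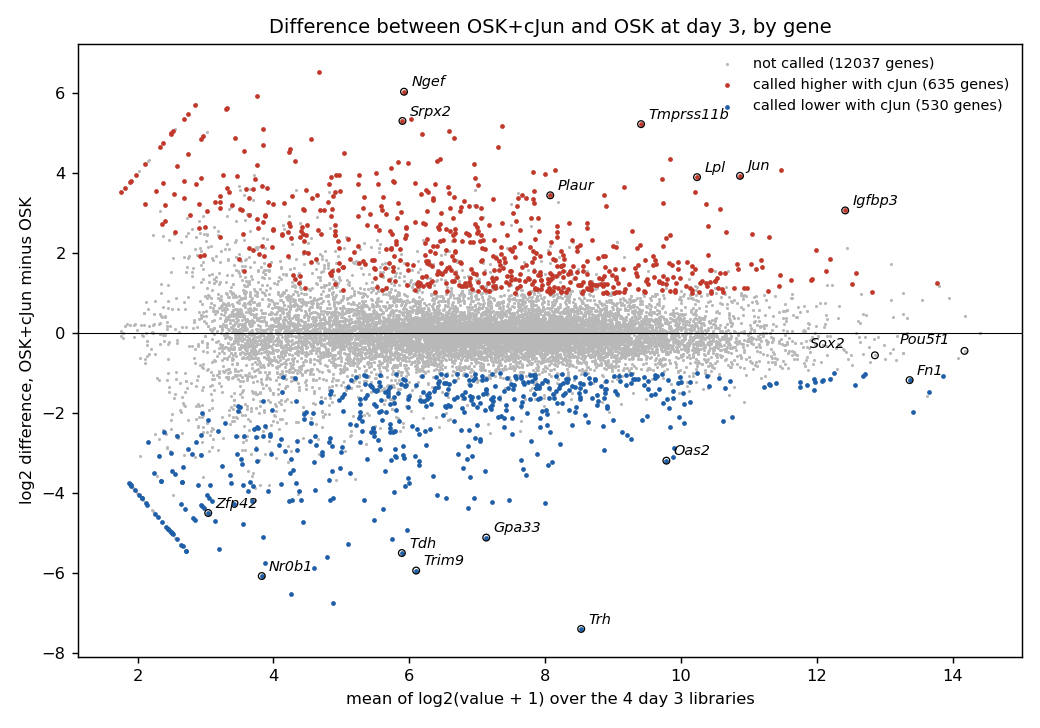
Each point is 1 of the 13202 genes tested, with the mean of log2(value + 1) over the 4 day 3 libraries on the x axis and the log2 difference, OSK+cJun minus OSK, on the y axis. The 635 genes that rose are red and the 530 that fell are blue, Jun lies at 3.94 and Trh at -7.40.

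The largest increases were taken by size among called genes with no overlap between groups and a mean of at least 50 in the higher group. Of them, Ngef, Srpx2, Ccr1, Birc7, Cdsn, Psca, Dsg1a and Nts passed the filter on low values through OSK+cJun alone. Passing in that way itself requires low OSK values. Pthlh (parathyroid hormone-like hormone) stood at 374 and 466 with cJun against 6 and 14 without, a rise of 5.35 (SE 0.59, adjusted p = 2.21e-05). Calcb (a calcitonin gene-related peptide) stood at 424 and 722 against 11 and 22, a rise of 5.06 (SE 0.59, adjusted p = 3.56e-05). Srpx2 (chrX:133908426-133932446 of GRCm38, plus strand, protein coding), a secreted sushi-repeat protein, stood at 377 and 373 against 9 and 8, a rise of 5.31 (SE 0.46, adjusted p = 3.18e-06). In each of these 3 genes both OSK+cJun libraries were above both OSK libraries, as the choice of genes requires.

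Among receptors and signalling proteins, Ngef, a guanine nucleotide exchange factor for small GTPases, read 351 and 687 with cJun and 7 and 6 without, a rise of 6.04 (SE 0.76, adjusted p = 6.26e-05). Chrna1 (chr2:73563215-73580338 of GRCm38, minus strand, protein coding), the alpha subunit of the muscle acetylcholine receptor, read 741 and 1327 with cJun and 26 and 27 without, a rise of 5.17 (SE 0.76, adjusted p = 0.000277). The chemokine receptor gene Ccr1 read 87 and 127 against 0 and 2 (5.94, SE 1.17, adjusted p = 0.00251). The groups did not overlap in any of these, as the choice of genes requires, and the OSK values of Ccr1 were near the floor of the scale. Birc7, an inhibitor-of-apoptosis protein, read 65 and 108 against 2 and 1 (5.11, SE 0.59, adjusted p = 3.07e-05).

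Tmprss11b, a transmembrane serine protease of squamous epithelia, was already at 95 and 128 in OSK cells and stood at 3162 and 5504 with cJun (5.23, SE 0.55, adjusted p = 1.89e-05). Cdsn (corneodesmosin, an adhesion protein of cornified cells) read 70 and 68 against 0 and 1 (5.63, SE 0.81, adjusted p = 0.000207). Psca (prostate stem cell antigen, a surface protein) read 52 and 88 against 0 and 1 (5.6, SE 0.67, adjusted p = 4.14e-05). Cdsn and Psca were thus at or near 0 in OSK cells while Tmprss11b was not. The desmosomal cadherin gene Dsg1a was listed at 0 in both OSK libraries and read 48 and 54 with cJun (adjusted p = 0.00929). Nts, which encodes the peptide neurotensin, was also listed at 0 in both OSK libraries and read 92 and 10 with cJun (adjusted p = 0.0428). The Dsg1a call was lost whichever library was left out (adjusted p 0.0554 to 0.0605) and that of Nts without OSK+cJun replicate 1, OSK replicate 1 or OSK replicate 2 (adjusted p 0.159 to 0.342).

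**Figure D2:**
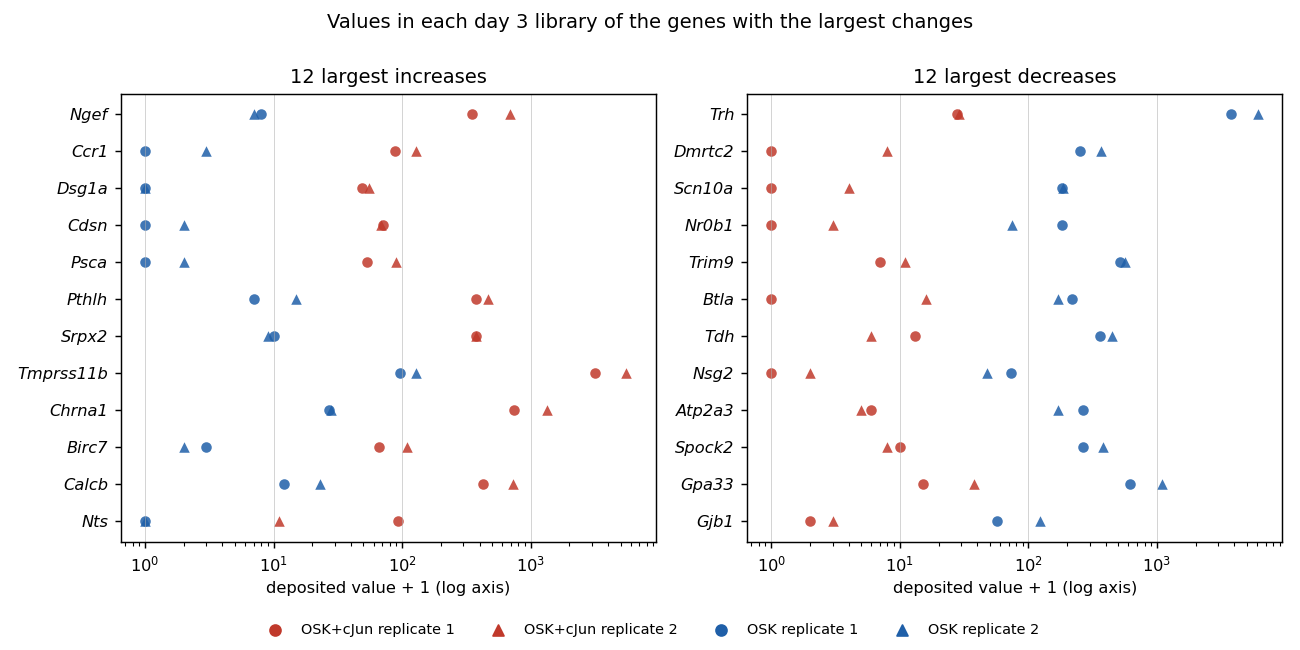
Deposited value + 1 on a log axis in each day 3 library for the 12 largest increases and the 12 largest decreases chosen by the naming rule, with OSK+cJun in red and OSK in blue. Red and blue points do not overlap for any of these genes, as the naming rule requires. The OSK+cJun replicates of Nts stand at 92 and 10, and Trh is the most abundant decrease, at 3769 and 6116 in OSK.

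Some increases were of abundant transcripts. Igfbp3 (chr11:7206086-7213923 of GRCm38, minus strand, protein coding), an insulin-like growth factor binding protein, read 21544 and 11664 with cJun and 1792 and 1987 without, a rise of 3.07 (SE 0.42, adjusted p = 0.000164) in which 1 library reached the top of the scale. The gene Pla2g7, for a lipoprotein-associated phospholipase, read 11667 in both with cJun against 694 and 676 (4.09, SE 0.61, adjusted p = 0.000387). Anxa1, a phospholipid-binding annexin, read 21544 in both with cJun against 11677 and 6943 (1.26, SE 0.26, adjusted p = 0.00376). That call was lost without OSK replicate 2 (adjusted p 0.0879), and both OSK+cJun values were at the cap. Nrd1 (the protease nardilysin) read 8974 in both against 2402 and 2539 (1.86, SE 0.23, adjusted p = 4.88e-05). Rtn4 (the endoplasmic reticulum protein reticulon 4) read 11677 and 8995 against 3617 in both (1.5, SE 0.20, adjusted p = 0.000121).

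Of the 11 tested genes for AP-1 family proteins, 2 rose (18.2%, beside 4.81% of all genes) and 0 fell (median 1.0). They were Jun, the added gene, whose rise was set by the design, and Fosl2, a Fos-family partner. Fosl2 read 277 and 253 with cJun against 135 and 128 (1.0, SE 0.27, adjusted p = 0.0207). The Fosl2 call was lost whichever library was left out (adjusted p 0.0739 to 0.129). Fosl1 read 427 and 326 against 58 and 41 (2.91) and Fos read 40 and 14 against 248 and 73 (-2.45), and neither was called.

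Of 23 tested genes known from the literature as AP-1 targets, 6 rose (26.1%, beside 4.81% of all genes), 0 fell, and 21 had a difference above 0. Their median difference was 1.17, beside -0.04 for all genes. Plaur (chr7:24462484-24475968 of GRCm38, plus strand, protein coding), the urokinase receptor, read 847 and 936 with cJun against 100 and 65 without (3.45, SE 0.59, adjusted p = 0.00106). Hbegf (heparin-binding EGF-like growth factor) read 94 and 147 against 14 and 11 (3.14, SE 0.52, adjusted p = 0.000668). Vegfa (vascular endothelial growth factor) read 174 and 235 against 41 and 38 (2.33, SE 0.44, adjusted p = 0.00198). All 3 encode surface or secreted proteins, and their groups did not overlap, as for every called gene. Ptgs2, the inducible cyclooxygenase, read 887 and 1380 against 255 and 242 (2.15, SE 0.45, adjusted p = 0.00451), and was lost without OSK+cJun replicate 2 (adjusted p 0.0603). The hyaluronan receptor gene Cd44 rose by 1.74 and the protease inhibitor gene Timp1 by 1.69. Calls were lost for Cd44 without OSK+cJun replicate 1 or OSK replicate 1 (adjusted p 0.0693 to 0.0807) and for Timp1 without OSK+cJun replicate 1, OSK+cJun replicate 2 or OSK replicate 2 (adjusted p 0.0778 to 0.162). With 1 library left out, 4 or 5 of the list rose. The collagenase gene Mmp13 (59 and 34 against 12 and 31) and the stromelysin gene Mmp3 (15 and 16 against 13 and 12) were not called.

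The promoter windows of 4 genes that rose are shown because each holds the AP-1 element TGACTCA, or its reverse complement TGAGTCA, within the 300 bases from 250 before to 50 after the RefSeq start (GRCm38.p6). Each is written 5′ to 3′ on the strand of its gene, with the element in capitals.
Srpx2 (chrX:133908175-133908474, plus strand): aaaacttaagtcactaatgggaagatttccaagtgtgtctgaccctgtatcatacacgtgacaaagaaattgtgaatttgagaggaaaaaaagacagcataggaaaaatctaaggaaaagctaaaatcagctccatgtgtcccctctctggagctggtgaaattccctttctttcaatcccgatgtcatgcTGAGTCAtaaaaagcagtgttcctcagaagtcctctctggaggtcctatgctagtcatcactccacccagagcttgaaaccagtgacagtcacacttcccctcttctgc
Plaur (chr7:24462233-24462532, plus strand): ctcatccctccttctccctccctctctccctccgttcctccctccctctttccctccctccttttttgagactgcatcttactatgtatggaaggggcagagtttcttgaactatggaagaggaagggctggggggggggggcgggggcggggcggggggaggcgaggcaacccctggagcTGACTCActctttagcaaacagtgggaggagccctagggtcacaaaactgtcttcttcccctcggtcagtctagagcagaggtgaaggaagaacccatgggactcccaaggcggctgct
Chrna1 (chr2:73580289-73580588, minus strand): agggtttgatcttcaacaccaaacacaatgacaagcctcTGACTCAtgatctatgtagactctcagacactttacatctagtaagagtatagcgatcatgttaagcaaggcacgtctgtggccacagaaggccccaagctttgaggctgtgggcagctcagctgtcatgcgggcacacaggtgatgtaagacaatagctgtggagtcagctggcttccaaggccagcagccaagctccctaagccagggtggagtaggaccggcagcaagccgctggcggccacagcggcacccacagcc
Cd68 (chr11:69666121-69666420, minus strand): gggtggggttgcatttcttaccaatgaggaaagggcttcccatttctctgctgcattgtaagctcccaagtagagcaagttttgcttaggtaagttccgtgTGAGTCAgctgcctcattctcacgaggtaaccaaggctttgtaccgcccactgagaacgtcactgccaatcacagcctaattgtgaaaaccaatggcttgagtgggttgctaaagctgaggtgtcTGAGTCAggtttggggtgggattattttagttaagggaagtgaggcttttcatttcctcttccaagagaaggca
The first base of the element lay at -59 from the start in Srpx2, -69 in Plaur and -211 in Chrna1, and Cd68 held it at -149 and -24. The named genes Nts, Rtn4, F3, Msmo1 and Srxn1, which rose, held it too. So did named genes that fell, Rsad2 with TGAGTCA at -87 and Smarca2 with TGACTCA at 28. With both strands searched, the element was found in 48 of the 498 genes that rose and have a window (9.64%), in 21 of 390 that fell (5.38%) and in 396 of 9161 not called (4.32%). It was in 465 of all 10049 tested genes with a window (4.63%) and in 5.20% of all 32851 windows of the table. The related element TGACGTCA, which does not contain the first, was found in 1.61% of the genes that rose and 3.08% of those that fell. It was in 3.65% of those not called, 3.52% of all tested genes with a window and 1.79% of all windows. A match is a run of letters in a window and shows no binding.

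Genes of the pluripotent state were among the largest decreases. Trh (chr6:92242061-92244650 of GRCm38, minus strand, protein coding), the thyrotropin-releasing hormone gene, stood at 3769 and 6116 in OSK and at 27 and 28 in OSK+cJun (log2 difference -7.40, SE 0.80, adjusted p = 2.46e-05). Tdh (chr14:63492347-63509092 of GRCm38, minus strand, protein coding), the threonine dehydrogenase on which mouse stem cells depend, read 357 and 444 in OSK and 12 and 5 with cJun (-5.50, SE 0.61, adjusted p = 2.21e-05). The nuclear receptor gene Nr0b1 read 183 and 73 in OSK and 0 and 2 with cJun (-6.07, SE 0.73, adjusted p = 4.14e-05). OSK libraries were above OSK+cJun libraries in all 3 genes, as held for every called gene that fell. Zfp42 (chr8:43295063-43306980 of GRCm38, minus strand, protein coding), also called Rex1 and a marker of naive pluripotency, read 33 and 44 in OSK and 0 and 2 with cJun (-4.50, SE 0.53, adjusted p = 3.97e-05).

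Of 34 pluripotency genes listed, 20 were tested, 10 fell (50%, beside 4.01% of all genes) and 0 rose. Of those that fell, 5 had passed the filter on low values through OSK alone, which itself requires a low value with cJun. The median difference was -1.94 over the tested members and -1.15 over those that did not pass in that way. Besides the 4 above, those that fell included the transcription factor genes Sall4 (-3.79), Tfcp2l1 (-3.55) and Nr5a2 (-2.89), the growth factor gene Gdf3 (-4.04) and the RNA-binding protein gene L1td1 (-1.15). With 1 library left out, 7 or 8 fell, and Tfcp2l1, Nr5a2 and L1td1 lost their calls whichever library it was (adjusted p 0.0549 to 0.175). The list summed to 7465 and 9929 in OSK and to 1460 and 1308 with cJun, and most of the OSK sum was Trh. The core factor gene Nanog read 2 and 1 in OSK and 0 and 1 with cJun, and Esrrb read 0 in both in OSK and 2 and 3 with cJun, both too low to be tested. In bulk RNA, fewer cells of a type and less RNA per cell cannot be told apart.

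Other large decreases were taken by size under the same limits as the increases. Of them, Scn10a, Dmrtc2, Spock2, Atp2a3, Nsg2 and Gjb1 passed the filter on low values through OSK alone. Passing in that way itself requires low values with cJun. The surface antigen gene Gpa33 read 620 and 1097 in OSK and 14 and 37 with cJun (-5.11, SE 0.55, adjusted p = 1.89e-05). Trim9, a brain ubiquitin ligase, read 514 and 560 in OSK and 6 and 10 with cJun (-5.94, SE 0.65, adjusted p = 2.12e-05). Scn10a, a sodium channel of sensory neurons, read 180 and 184 in OSK and 0 and 3 with cJun (-6.52, SE 0.78, adjusted p = 4.24e-05). Gpa33 read 384 and 471 in ESC and 0 and 1 in MEF. With cJun, Trim9 and Scn10a stood at or below the filter value of 10, and Gpa33 stood above it. The DM-domain gene Dmrtc2 read 253 and 363 in OSK and 0 and 7 with cJun (-6.75, SE 0.82, adjusted p = 4.57e-05). The proteoglycan gene Spock2 (-5.16), the calcium pump gene Atp2a3 (-5.28), the neuronal vesicle protein gene Nsg2 (-5.39) and the connexin gene Gjb1 (-5.10) also fell. The lymphocyte receptor gene Btla read 217 and 169 in OSK and 0 and 15 with cJun (-5.59, SE 1.37, adjusted p = 0.0134), a call lost without OSK+cJun replicate 1, OSK replicate 1 or OSK replicate 2 (adjusted p 0.0669 to 0.207).

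The most abundant transcripts that fell were Wars (tryptophanyl-tRNA synthetase), Hnrnpu (a nuclear RNA-binding protein), Huwe1 (a ubiquitin ligase), Fn1 (fibronectin), Npm1 (nucleophosmin) and Actb (beta-actin). The first 3 were at the cap of 21544 in both OSK libraries. With cJun, Wars read 6118 and 5017 (-1.96, SE 0.46, adjusted p = 0.0101), Hnrnpu 7714 in both (-1.48, SE 0.43, adjusted p = 0.0327) and Huwe1 8995 and 11677 (-1.07, SE 0.31, adjusted p = 0.0333). Fn1 read 21544 and 11673 in OSK and 8988 and 5497 with cJun (-1.17, SE 0.28, adjusted p = 0.0111). Npm1 (log2 difference -1.29) and Actb (-1.08) also fell. None of these calls held without each library in turn. Wars was lost without OSK+cJun replicate 2, OSK replicate 1 or OSK replicate 2 (adjusted p 0.06 to 0.0786), Hnrnpu whichever library was left out (adjusted p 0.13 to 0.141), Huwe1 whichever library was left out (adjusted p 0.0647 to 0.233), Fn1 without OSK+cJun replicate 2 or OSK replicate 1 (adjusted p 0.167 to 0.199), Npm1 without OSK+cJun replicate 2, OSK replicate 1 or OSK replicate 2 (adjusted p 0.061 to 0.384) and Actb without OSK+cJun replicate 2 or OSK replicate 1 (adjusted p 0.125 to 0.181). Actb was the only one called of 10 housekeeping genes (10%, beside 4.01% of all genes that fell).

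Of 16 contractile and actin genes tested, 6 rose (37.5%, beside 4.81% of all genes) and 1 fell (6.25%, beside 4.01%). The median difference was 0.49. Vcl, the focal adhesion protein vinculin, read 2188 and 2353 with cJun against 901 and 948 without (1.29, SE 0.20, adjusted p = 0.000358). The tropomyosin gene Tpm2 read 399 and 190 against 83 and 29 (2.46, SE 0.51, adjusted p = 0.00421). Zyx, a focal adhesion protein, rose by 1.61, the actin cross-linker genes Flna and Actn1 by 1.23 each and the calponin gene Cnn2 by 1.10, while Synpo2, for an actin-bundling protein, fell (-2.27). The smooth-muscle genes Acta2 (232 and 243 against 310 and 232) and Tagln (24 and 25 against 23 and 16) were not called. With 1 library left out, between 1 and 5 of the list rose, and Vcl was called each time. The other calls were lost for Tpm2 without OSK+cJun replicate 1 or OSK replicate 2 (adjusted p 0.0744 to 0.0866), Zyx without OSK+cJun replicate 1 or OSK replicate 2 (adjusted p 0.111 to 0.14), Actn1 without OSK+cJun replicate 1 or OSK replicate 2 (adjusted p 0.0785 to 0.118), Cnn2 without OSK+cJun replicate 1, OSK+cJun replicate 2 or OSK replicate 2 (adjusted p 0.0774 to 0.213), Flna without OSK+cJun replicate 1, OSK+cJun replicate 2 or OSK replicate 1 (adjusted p 0.0671 to 0.115) and Synpo2 without OSK replicate 1 (adjusted p 0.0786).

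Of 33 fibroblast matrix genes, 3 rose and 3 fell (9.09% each, beside 4.81% and 4.01% of all genes, median 0.22). Between 0 and 2 of the list rose and 2 fell with 1 library left out. Fbn2 (fibrillin 2) read 1522 and 1391 in OSK and 318 and 332 with cJun (-2.16, SE 0.45, adjusted p = 0.00392). Its groups did not overlap, as for every called gene, and it kept its call without each library. The microfibril gene Mfap5 (2.94), the collagen gene Col3a1 (1.56) and the matricellular gene Sparc (1.34) rose, and the elastic-fibre gene Fbln2 (-1.73) fell beside Fn1. Col1a2 was at the cap of 21544 in all 4 libraries and can show no change, and Col1a1 read 1280 and 1388 against 1001 and 720 (0.65, not called). Calls were lost for Mfap5 without OSK replicate 2 (adjusted p 0.0568), Fbln2 without OSK+cJun replicate 1 or OSK replicate 2 (adjusted p 0.0502 to 0.0736), Sparc without OSK+cJun replicate 2, OSK replicate 1 or OSK replicate 2 (adjusted p 0.0858 to 0.385) and Col3a1 whichever library was left out (adjusted p 0.0731 to 0.197).

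Of 25 matrix proteases and inhibitors, Timp1, Timp2 and Timp3 rose (12%, beside 4.81% of all genes) and Mmp15 fell (4%, beside 4.01%). The membrane-type protease gene Mmp15 read 37 and 43 in OSK and 4 and 3 with cJun (-3.19, SE 0.56, adjusted p = 0.00101). The inhibitor gene Timp2 read 1650 and 1608 against 666 and 593 (1.37) and Timp3 3037 and 3614 against 748 and 1330 (1.73), and both lost their calls whichever library was left out (adjusted p 0.0649 to 0.301). Of 23 fibroblast surface genes, Axl and Cd44 rose (8.7%, beside 4.81% of all genes) and Mcam and Eng fell (8.7%, beside 4.01%). The receptor tyrosine kinase gene Axl read 3407 and 3031 against 1097 and 1008 (1.61, SE 0.26, adjusted p = 0.000586), a call kept without each library. The adhesion gene Mcam (-1.68) lost its call without OSK+cJun replicate 2 or OSK replicate 2 (adjusted p 0.0854 to 0.101) and the TGF-beta coreceptor gene Eng (-1.01) whichever library was left out (adjusted p 0.0886 to 0.21).

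Of 23 mesenchymal transcription factor genes, only Runx2, the osteogenic Runt-domain factor, was called (4.35%, beside 4.81% of all genes that rose). It read 293 and 202 with cJun and 44 and 40 without (2.51, SE 0.46, adjusted p = 0.00156), and the call held without each library. Twist1 (764 and 519 against 344 and 213) and Snai2 (61 and 32 against 28 and 13), factors of the mesenchymal state, were not called, and Prrx1 (1593 and 968 against 1799 and 1038) overlapped between groups. Among 18 genes of the YAP and SRF pathways, 3 rose (16.7%, beside 4.81% of all genes) and 1 fell (5.56%, beside 4.01%). Axl, the coagulation factor gene F3 (1.66) and the YAP partner gene Tead4 (1.49) rose. The kinase gene Nuak2 read 79 and 136 in OSK and 11 and 29 with cJun (-2.46, SE 0.41, adjusted p = 0.000725). F3 and Tead4 lost their calls whichever library was left out (adjusted p 0.0673 to 0.158).

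Epithelial genes, which OSK cells gain on the way to pluripotency, were called in both directions. Of 20 tested, 3 fell (15%, beside 4.01% of all genes) and 1 rose (5%, beside 4.81%), with a median of 0.08. Esrp2, an epithelial splicing regulator, read 89 and 109 in OSK and 15 and 13 with cJun (-2.73, SE 0.57, adjusted p = 0.00378). Cdh1, which encodes E-cadherin, read 165 and 585 in OSK and 34 and 54 with cJun (-2.83, SE 0.87, adjusted p = 0.0461). OSK replicates of Cdh1 were far apart from each other, yet both were above OSK+cJun, as held for every called gene that fell. The protease inhibitor gene Spint2 read 217 and 354 in OSK and 58 and 107 with cJun (-1.80). In the other direction, the simple keratin gene Krt19 read 185 and 178 with cJun and 9 and 12 without (4.0, SE 0.90, adjusted p = 0.00763). Epcam (59 and 118 against 58 and 189) overlapped between groups. Calls were lost for Cdh1 without OSK+cJun replicate 1, OSK+cJun replicate 2 or OSK replicate 2 (adjusted p 0.11 to 0.362), Spint2 without OSK+cJun replicate 1 or OSK replicate 2 (adjusted p 0.199 to 0.224) and Krt19 without OSK+cJun replicate 1 or OSK replicate 1 (adjusted p 0.0531 to 0.0614).

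Markers of other cell types were read beside these genes. The 12 fibroblast markers summed to 33829 and 32712 with cJun and 28492 and 26299 without. Most of each sum was Col1a2, which was at the cap of 21544 in all 4 libraries and can show no change. The median difference was -0.01, and Col3a1 was the one called (8.33%, beside 4.81% of all genes that rose). Of 9 keratinocyte markers 4 were tested, of which 2 rose (50%, beside 4.81% of all genes) and 1 fell (25%, beside 4.01%). Sfn (stratifin) read 299 and 273 against 27 and 37 (3.14, SE 0.60, adjusted p = 0.00227) and the stress keratin gene Krt6a 104 and 145 against 6 and 8 (3.96, SE 0.80, adjusted p = 0.0032). The Krt6a call was lost with a pseudocount of 0.1 in place of 1 (adjusted p 0.0787). Krt6a had passed the filter on low values through OSK+cJun alone. The basal-cell factor gene Trp63 fell (-2.56, SE 0.80, adjusted p = 0.0444), a call lost without OSK+cJun replicate 2 or OSK replicate 1 (adjusted p 0.334 to 0.354). The basal keratin gene Krt5 read 0 in both with cJun and 0 and 1 without, and Krt17 was listed at 0 throughout. The keratinocyte list summed to 458 and 451 against 152 and 94.

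Of 13 macrophage and blood markers, 6 were tested and Cd68 (chr11:69664213-69666153 of GRCm38, minus strand, protein coding), a lysosomal glycoprotein, was the one called. That was 16.7% of the tested members, beside 4.81% of all genes that rose. Cd68 read 688 and 883 with cJun and 76 and 57 without (3.55, SE 0.65, adjusted p = 0.00153). The list summed to 1007 and 976 against 406 and 138, mostly Cd68 in the former, and the macrophage marker Adgre1 read 12 and 3 against 7 and 2. Of 9 neural markers, Tubb3 (neuronal beta-tubulin) read 628 and 842 against 54 and 90 (3.36, SE 0.45, adjusted p = 0.000128) and the intermediate filament gene Nes 1224 and 1034 against 332 and 398 (1.63), the latter lost whichever library was left out (adjusted p 0.0765 to 0.143). Of the 5 neural markers tested, 2 rose (40%, beside 4.81% of all genes). Dcx, of migrating neurons, was listed at 0 in both OSK+cJun libraries and read 5 and 2 in OSK. The neural list summed to 15134 and 14954 against 5816 and 4822, and most of each sum came from members that were not called.

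Both tested adipocyte markers rose (100%, beside 4.81% of all genes), and 1 of them, Pparg, had passed the filter on low values through OSK+cJun alone. Lpl (chr8:68880491-68907448 of GRCm38, plus strand, protein coding), lipoprotein lipase, read 4319 and 5038 with cJun and 309 and 313 without (3.90, SE 0.37, adjusted p = 5.78e-06). The nuclear receptor gene Pparg read 30 and 36 against 9 and 2 (2.63, SE 0.57, adjusted p = 0.00495), a call lost without OSK replicate 2 (adjusted p 0.11). Of the other adipocyte markers, Cebpa was listed at 0 in all 4 libraries and Fabp4 read 0 in both against 0 and 1. The adipocyte list summed to 4349 and 5074 against 318 and 316, nearly all Lpl. Of 9 endothelial markers, Kdr (957 and 317 against 92 and 36) and Tek (795 and 637 against 331 and 377) were tested and not called, Cdh5 read 4 and 0 against 3 and 1, and the list summed to 1768 and 970 against 444 and 429. Muscle markers summed to 18 and 16 against 21 and 22. The part of other cell types in these differences was not tested.

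**Figure D3:**
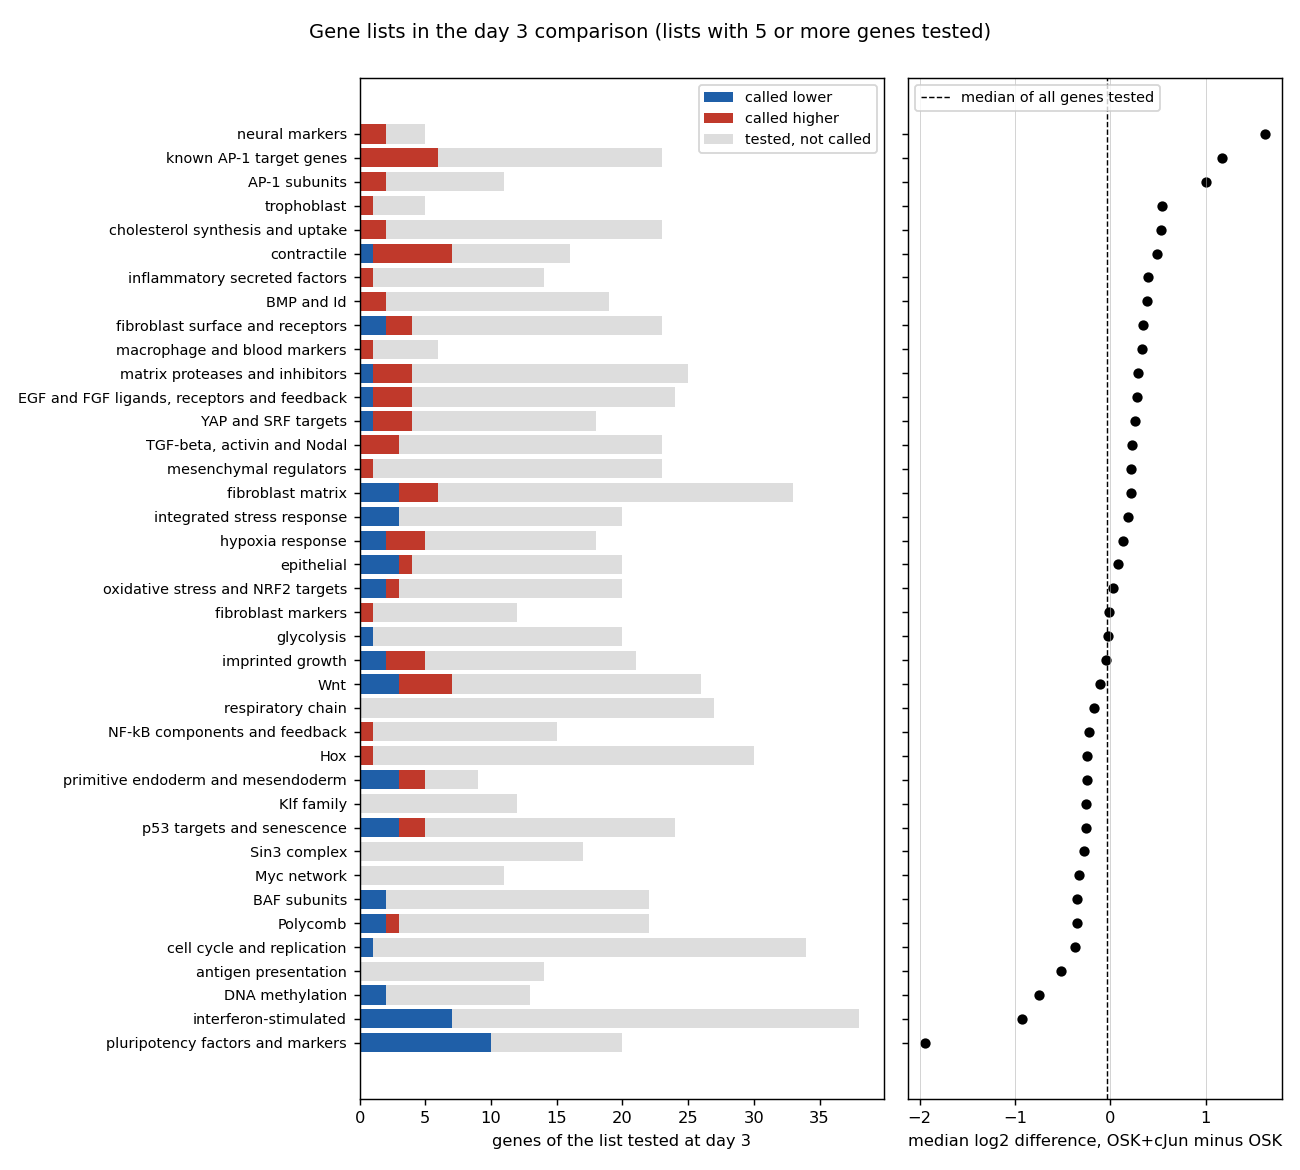
Left, the number of tested genes of each list that fell (blue), rose (red) or were not called (grey) at day 3, and right, the median log2 difference of each list with the median of all genes tested (-0.04) as a dashed line. Pluripotency (10 of 20) and interferon-stimulated genes (7 of 38) hold the longest blue bars, and contractile genes and known AP-1 targets (6 each) the longest red bars.

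Interferon-stimulated genes encode the antiviral response, and of 38 tested 7 fell (18.4%, beside 4.01% of all genes) and 0 rose. The median difference was -0.92, and Isg20 (0.40) was the only member above 0. Oas2 (chr5:120730333-120749853 of GRCm38, minus strand, protein coding), a sensor of double-stranded RNA, read 2711 and 2616 in OSK and 325 and 261 with cJun (-3.19, SE 0.24, adjusted p = 8.60e-07). Ddx58, which encodes the RNA sensor RIG-I, read 3611 and 3154 in OSK and 833 and 655 with cJun (-2.19, SE 0.31, adjusted p = 0.000182). Rsad2 (viperin) read 295 and 156 in OSK and 18 and 9 with cJun (-3.97, SE 0.59, adjusted p = 0.000291). These 3 kept their calls without each library. Ifit1 (-1.85), Mx1 (-2.28), Oas1a (-1.32) and Cmpk2 (-2.11) also fell. Their calls were lost for Ifit1 without OSK+cJun replicate 2, OSK replicate 1 or OSK replicate 2 (adjusted p 0.0542 to 0.0673), Mx1 without OSK+cJun replicate 1, OSK+cJun replicate 2 or OSK replicate 1 (adjusted p 0.0598 to 0.156), and for Oas1a and Cmpk2 whichever library was left out (adjusted p 0.0674 to 0.236). With 1 library left out, 3 or 4 of the list fell. The list summed to 57904 and 64189 in OSK and 33530 and 32320 with cJun.

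Irf7, a transcription factor of the interferon pathway, read 801 and 630 in OSK and 356 and 260 with cJun and was not called. In MEF, Oas2 read 2 and 3 and Ifit1 10 and 25, so day 3 OSK cells were far above MEF for both genes. Of 14 antigen presentation genes, limma called none of either direction, beside 8.82% of all genes (median -0.52). B2m, the light chain of MHC class I, read 8981 in both in OSK and 5489 in both with cJun (-0.71, SE 0.37, adjusted p = 0.262). Among 14 tested inflammatory factors only Ptgs2 was called (7.14%, beside 4.81% of all genes that rose), and the chemokine gene Ccl2 read 134 and 544 against 113 and 350. Of 15 NF-kB genes, Tnfaip2, a TNF-induced gene, was the one called (6.67%, beside 4.81% of all genes that rose). Tnfaip2 read 456 and 463 against 128 and 83 (2.15, SE 0.38, adjusted p = 0.00124), a call lost with a pseudocount of 0.1 in place of 1 (adjusted p 0.0719).

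In the EGF and FGF list of 24, the EGF-family ligand genes Nrg1, Hbegf and Epgn rose (12.5%, beside 4.81% of all genes). Dusp6, a phosphatase that limits ERK signalling, fell (4.17%, beside 4.01%). Nrg1 (neuregulin 1) read 168 and 258 with cJun against 56 and 43 (2.06, SE 0.30, adjusted p = 0.000274). Epgn (epigen) read 231 and 156 against 34 and 22 (2.75, SE 0.76, adjusted p = 0.0232), a call lost whichever library was left out (adjusted p 0.0673 to 0.162). Dusp6 read 596 and 562 in OSK and 156 and 88 with cJun (-2.29, SE 0.41, adjusted p = 0.00133). The groups did not overlap for Nrg1 and Dusp6, as for every called gene, and both kept their calls without each library. The feedback inhibitor gene Spry4 read 780 and 753 in OSK and 263 and 305 with cJun and was not called (-1.43).

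Of 23 genes of TGF-beta, activin and Nodal signalling, 3 rose (13%, beside 4.81% of all genes) and 0 fell. Ltbp1, which anchors latent TGF-beta in the matrix, read 5033 and 4314 against 1909 and 1521 (1.45, SE 0.24, adjusted p = 0.000711), kept without each library. The activin antagonist gene Fst read 2356 and 1733 against 645 and 536 (1.78) and the TGF-beta-induced gene Tgfbi 654 and 682 against 177 and 88 (2.41), both lost whichever library was left out (adjusted p 0.0661 to 0.268). Of 19 BMP and Id genes, 2 rose (10.5%, beside 4.81% of all genes) and 0 fell. The ligand gene Bmp6 read 39 and 101 against 4 and 6 (3.43, SE 0.67, adjusted p = 0.00231), kept without each library. Bmp6 had passed the filter on low values through OSK+cJun alone. The BMP target genes Id1 (34 and 32 against 93 and 72) and Id2 (69 and 130 against 155 and 367) were not called.

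Of 26 Wnt genes, 4 rose (15.4%, beside 4.81% of all genes) and 3 fell (11.5%, beside 4.01%). Between 0 and 3 rose and between 1 and 3 fell with 1 library left out. The ligand genes Wnt5a and Wnt11 read 867 and 710 against 137 and 206 (2.22) and 122 and 100 against 3 and 13 (3.90), and the receptor genes Fzd1 (1.88) and Fzd7 (1.47) also rose. The secreted protein gene Dkk3 read 164 and 55 in OSK and 12 and 5 with cJun (-3.44, SE 0.63, adjusted p = 0.00152). The receptor gene Fzd5 read 927 and 656 in OSK and 171 and 74 with cJun (-2.78, SE 0.54, adjusted p = 0.00265) and the feedback inhibitor gene Nkd1 53 and 147 in OSK and 12 and 9 with cJun (-2.97, SE 0.68, adjusted p = 0.0073). Axin2, a target of the canonical pathway, read 126 and 98 against 157 and 126 and was not called. Dkk3 alone of these kept its call without each library. The others lost theirs, Fzd5 without OSK+cJun replicate 2 (adjusted p 0.0501), Wnt11 without OSK+cJun replicate 1 or OSK replicate 1 (adjusted p 0.0716 to 0.131), Wnt5a without OSK+cJun replicate 1 or OSK replicate 1 (adjusted p 0.0904 to 0.108), Nkd1 without OSK+cJun replicate 2 or OSK replicate 2 (adjusted p 0.0613 to 0.123), Fzd7 without OSK+cJun replicate 1 or OSK replicate 2 (adjusted p 0.139 to 0.17) and Fzd1 whichever library was left out (adjusted p 0.112 to 0.246).

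Of 13 DNA methylation genes, Tet2 and Tet1 fell (15.4%, beside 4.01% of all genes) and none rose (median -0.75). Tet2, a methylcytosine dioxygenase, read 2414 and 2198 in OSK and 435 and 538 with cJun (-2.25, SE 0.31, adjusted p = 0.000156). Its groups did not overlap, as for every called gene, and its call was kept without each library. Tet1 read 16 and 13 in OSK and 2 and 4 with cJun (-1.99), lost whichever library was left out (adjusted p 0.0588 to 0.232). The methyltransferase gene Dnmt3a read 540 and 707 in OSK and 241 and 335 with cJun and was not called. Of 22 Polycomb genes, 1 rose (4.55%, beside 4.81% of all genes) and 2 fell (9.09%, beside 4.01%). Rnf2 (a ubiquitin ligase of PRC1) read 655 and 609 with cJun against 268 and 273 (1.22, SE 0.26, adjusted p = 0.00474), and the PRC2 genes Suz12 (-1.08) and Jarid2 (-1.22) fell. Of 22 BAF chromatin remodeller genes, the ATPase gene Smarca2 (-1.21) and the subunit gene Dpf1 (-1.33) fell (9.09%, beside 4.01% of all genes). Calls were lost for Suz12 without OSK+cJun replicate 2 or OSK replicate 1 (adjusted p 0.0664 to 0.0983), Jarid2 without OSK+cJun replicate 1, OSK replicate 1 or OSK replicate 2 (adjusted p 0.0526 to 0.121), Smarca2 without OSK replicate 1 (adjusted p 0.0642) and Dpf1 whichever library was left out (adjusted p 0.0526 to 0.109). By limma, no gene was called in the lists of 17 Sin3 complex, 12 Klf family, 11 Myc network and 27 respiratory chain genes, beside 8.82% of all genes. Their medians were -0.28, -0.25, -0.32 and -0.17.

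Of 34 cell cycle genes, E2f2, an E2F transcription factor of replicating cells, was the only one called (2.94%, beside 4.01% of all genes that fell). It read 89 and 111 in OSK and 34 and 25 with cJun (-1.73, SE 0.31, adjusted p = 0.00127), kept without each library. The number of members with a difference above 0 was 0 (median -0.37, beside -0.04 for all genes), and the proliferation marker gene Mki67 read 4312 and 2411 in OSK and 2409 and 1797 with cJun. Among 24 p53 and senescence genes, Igfbp3 and Perp rose (8.33%, beside 4.81% of all genes) and Sesn1, Sesn2 and Bbc3 fell (12.5%, beside 4.01%). The desmosomal p53 target gene Perp read 3276 and 2153 against 797 and 583 (1.96, SE 0.51, adjusted p = 0.0179). Sesn2, a stress-responsive sestrin, read 607 and 507 in OSK and 233 and 200 with cJun (-1.36, SE 0.28, adjusted p = 0.00348). The cell cycle inhibitor gene Cdkn1a read 2125 and 2076 in OSK and 1733 in both with cJun and was not called. Igfbp3 and Sesn2 kept their calls without each library, and calls were lost for Perp without OSK+cJun replicate 1, OSK replicate 1 or OSK replicate 2 (adjusted p 0.0536 to 0.157), Sesn1 (-1.18) without OSK+cJun replicate 1, OSK replicate 1 or OSK replicate 2 (adjusted p 0.0883 to 0.191) and Bbc3 (-1.23) whichever library was left out (adjusted p 0.0705 to 0.318).

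In cholesterol synthesis and uptake, 2 of 23 genes rose (8.7%, beside 4.81% of all genes) and 19 had a difference above 0 (median 0.53). Msmo1, a sterol oxidase, read 1282 and 1737 against 361 and 430 (1.92, SE 0.19, adjusted p = 6.13e-06). The sterol dehydrogenase gene Nsdhl read 446 and 414 against 213 and 204 (1.04, SE 0.25, adjusted p = 0.0105), lost without OSK+cJun replicate 1, OSK replicate 1 or OSK replicate 2 (adjusted p 0.0545 to 0.0803). In the hypoxia list of 18, Vegfa, the prolyl hydroxylase gene P4ha2 and Bhlhe40 rose (16.7%, beside 4.81% of all genes). Ddit4 and Pdk1 fell (11.1%, beside 4.01%). P4ha2 read 169 and 158 against 31 and 36 (2.26, SE 0.44, adjusted p = 0.00224), and its call and that of Vegfa were kept without each library. The other calls were lost, Bhlhe40 (1.4) whichever library was left out (adjusted p 0.117 to 0.164), the mTORC1 inhibitor gene Ddit4 (-2.12) without OSK+cJun replicate 2 or OSK replicate 1 (adjusted p 0.0519 to 0.0774) and the kinase gene Pdk1 (-1.34) without OSK+cJun replicate 1, OSK replicate 1 or OSK replicate 2 (adjusted p 0.0601 to 0.257). Pdk1 was also the only one called of 20 glycolysis genes (5%, beside 4.01% of all genes that fell).

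Of 20 integrated stress response genes, Sesn2, the arginine transporter gene Slc7a3 and Asns (asparagine synthetase, -1.03) fell (15%, beside 4.01% of all genes). Slc7a3 read 952 and 1241 in OSK and 230 and 248 with cJun (-2.18, SE 0.47, adjusted p = 0.00535), lost without OSK replicate 2 (adjusted p 0.0599). Asns fell short of the fold or the p without replicate 2 of either group (adjusted p 0.0286 to 0.0515). Of 20 NRF2-linked genes, Srxn1 (1.23) rose (5%, beside 4.81% of all genes). The glutathione transferase genes Gstm1 (-1.07) and Gsta3 (-2.26) fell (10%, beside 4.01%). Their calls were lost, Srxn1 without OSK+cJun replicate 1 or OSK replicate 2 (adjusted p 0.0974 to 0.107), Gstm1 whichever library was left out (adjusted p 0.0728 to 0.177) and Gsta3 whichever library was left out (adjusted p 0.12 to 0.191).

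Of 30 Hox genes, Hoxd8 alone rose (3.33%, beside 4.81% of all genes). Hoxd8 read 205 and 95 against 52 and 32 (1.75, and 1.20 to 2.30 with 1 library left out). Its call was lost without OSK+cJun replicate 1, OSK replicate 1 or OSK replicate 2. Of 21 imprinted genes, Zim1, Snrpn and Gnas rose (14.3%, beside 4.81% of all genes) and Meg3 and Nnat fell (9.52%, beside 4.01%). The zinc-finger gene Zim1 read 73 and 91 against 6 and 7 (3.46, SE 0.65, adjusted p = 0.00166) and Snrpn, a splicing protein gene, 1244 and 1616 against 551 and 564 (1.35, SE 0.26, adjusted p = 0.00238). The noncoding RNA gene Meg3 read 1375 and 1766 in OSK and 542 and 464 with cJun (-1.63, SE 0.32, adjusted p = 0.00251). Those 3 kept their calls without each library, while Nnat (-2.29) lost its call without OSK+cJun replicate 1 or OSK replicate 1 (adjusted p 0.0785 to 0.102) and Gnas (1.02) without OSK+cJun replicate 1, OSK replicate 1 or OSK replicate 2 (adjusted p 0.058 to 0.183).

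Among 9 tested genes of primitive endoderm and mesendoderm, the basement membrane genes Col4a1, Lama1 and Lamc1 fell (33.3%, beside 4.01% of all genes). Lamb1 and Sparc rose (22.2%, beside 4.81%). Col4a1 read 6129 and 6935 in OSK and 2473 and 2409 with cJun (-1.42, SE 0.24, adjusted p = 0.000862), and Lama1 896 and 914 in OSK and 253 and 256 with cJun (-1.83), both kept without each library. Lamc1 (-1.34) lost its call without OSK+cJun replicate 1, OSK replicate 1 or OSK replicate 2 (adjusted p 0.0544 to 0.0683) and Lamb1 (1.32) without OSK+cJun replicate 1, OSK+cJun replicate 2 or OSK replicate 2 (adjusted p 0.0618 to 0.103). Sparc (1.34) lost its call without OSK+cJun replicate 2, OSK replicate 1 or OSK replicate 2 (adjusted p 0.0858 to 0.385). The lineage factor gene Gata4 read 4 in both against 9 and 3, and Sox17 was listed at 0 in all 4 libraries. Of 5 tested trophoblast genes Tead4 alone was called (20%, beside 4.81% of all genes that rose). Its difference was 1.49, and 1.44 to 1.54 with 1 library left out, and the call was lost whichever library it was. By limma, none of 3 tested germline genes was called, beside 8.82% of all genes.

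Genes that differ between MEF and ESC were read at day 3 as well. The first set was 539 tested genes higher in ESC than in MEF by a log2 difference of at least 3, at limma's adjusted p below 0.05. Of these, 112 fell with cJun (20.8%, beside 4.01% of all genes) and 21 rose (3.90%), with a median difference of -0.55. Of 1206 genes higher in MEF than in ESC under the same limits, 191 rose (15.8%, beside 4.81%) and 45 fell (3.73%), with a median of 0.33. The sets were chosen on MEF and ESC libraries, which are not part of the day 3 contrast, but only among genes that passed the day 3 filter on low values. Of all genes tested, 246 passed that filter through OSK alone and 241 through OSK+cJun alone, and 215 of these were called. Passing through OSK alone itself requires a low value with cJun, and the reverse holds for OSK+cJun alone. The part of such genes in the percentages of these sets was not tested.

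The same contrast at other days uses different libraries. At day 0, 7 of the same 13202 genes were called (0.053%), 3 higher (0.0227%) and 4 lower (0.0303%). At day 1, 303 were called (2.3%), 189 higher (1.43%) and 114 lower (0.864%), and at day 7, 1665 (12.6%), 1047 higher (7.93%) and 618 lower (4.68%). Of the 635 genes that rose at day 3, 138 also rose at day 1 (21.7% of the day 3 list and 73.0% of the 189 that rose at day 1) and 483 at day 7 (76.1% of the day 3 list and 46.1% of the 1047 of day 7). Of the 530 that fell, 76 fell at day 1 (14.3% and 66.7%) and 248 at day 7 (46.8% and 40.1%). The median difference of the genes that rose at day 3 was 0.31 at day 0, 1.0 at day 1 and 1.96 at day 7, and that of the genes that fell was -0.37, -0.81 and -1.31. At day 7 the sign was shared by 98.3% of the former and 93.6% of the latter, beside 46.6% and 53% of all genes tested with that sign, and 1 gene that rose at day 3 fell at day 7.

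**Figure D4:**
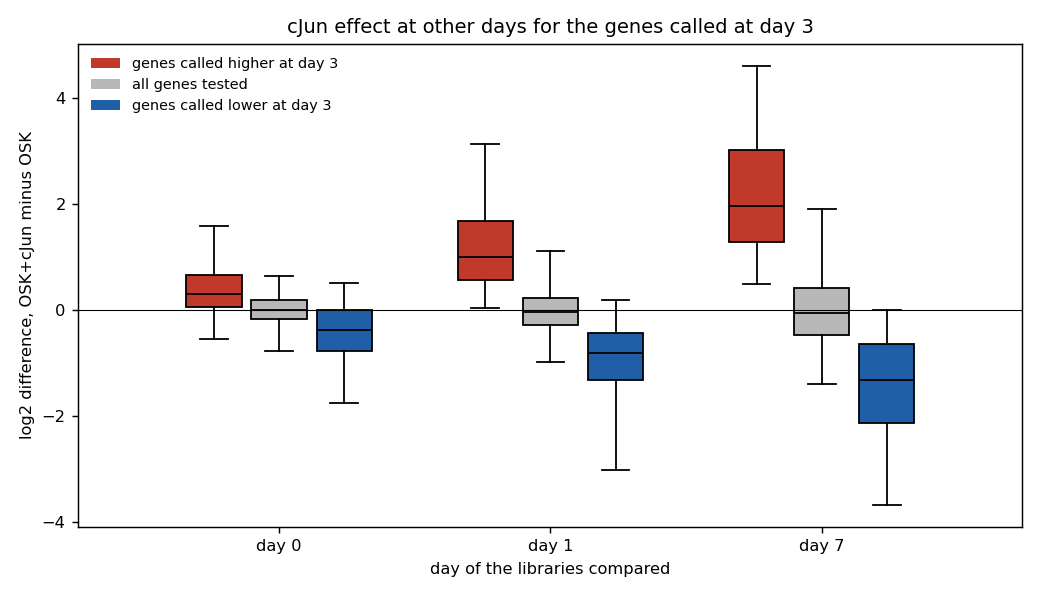
Log2 difference, OSK+cJun minus OSK, at days 0, 1 and 7 for the genes that rose at day 3 (red), all genes tested (grey) and the genes that fell at day 3 (blue). Boxes span the quartiles with the median as a line, whiskers run from the 5th to the 95th percentile, and the red medians are 0.31, 1.0 and 1.96.

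The size of the cJun effect was tested between days in the same fit. It differed between day 3 and day 0 for 178 genes (1.35%), 102 with a higher (0.773%) and 76 with a lower difference at day 3 (0.576%). With 1 library left out the count for the cJun effect at day 3 minus day 0 was 68 to 104. Tmprss11b at day 0 read 16 and 20 with cJun and 28 and 52 without, and its effect moved by 6.28 (SE 0.78, adjusted p = 0.000932). Trh at day 0 read 2 and 0 against 4 and 1, and its effect moved by -6.53 (SE 1.13, adjusted p = 0.00968). Both genes were thus without a called effect at day 0. Igfbp3 read 3407 and 2711 against 4303 and 3152 at day 0, and its effect moved by 3.35 (SE 0.60, adjusted p = 0.0106).

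Between day 3 and day 1, 4 genes differed (0.0303%), 1 with a higher (0.00757%) and 3 with a lower difference at day 3 (0.0227%). Without replicate 1 of OSK+cJun at day 1 or at day 3 the count was 0, and it was up to 9 without another library. Myof, a membrane-repair ferlin, read 3773 and 4013 with cJun and 827 and 554 without at day 3 (2.52, SE 0.23, adjusted p = 4.89e-06). At day 1 it read 4616 and 5023 with cJun and 4013 and 3154 without, so the OSK values were lower at day 3 than at day 1 while the OSK+cJun values stayed close, and the effect moved by 2.08 (SE 0.32, adjusted p = 0.0245). The focal adhesion gene Tns3 read 300 and 416 against 1329 and 1676 at day 3 and 716 and 552 against 467 and 568 at day 1 (a move of -2.36, SE 0.33, adjusted p = 0.02). Carmil1, an actin-capping regulator, read 37 and 39 against 368 and 318 at day 3 and 72 and 51 against 56 and 44 at day 1 (-3.42, SE 0.53, adjusted p = 0.0245). Both were higher in OSK at day 3 than at day 1 and not with cJun. Zfp42 at day 1 read 0 and 1 against 0 and 1 (-4.50, SE 0.76, adjusted p = 0.0491).

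Between day 7 and day 3 a single gene, Oas2, differed (0.00757%). Without either OSK+cJun library or OSK replicate 1 of day 3 the count was 0, and without OSK replicate 1 of day 7 it was 25. Its OSK values were 2711 and 2616 at day 3 and 1456 and 1251 at day 7 and its OSK+cJun values were 325 and 261 at day 3 and 913 and 606 at day 7, a move of 2.33 (SE 0.33, adjusted p = 0.027). At day 1 it read 21 and 24 in OSK and 7 and 6 with cJun. At day 7, Tdh read 1079 and 539 in OSK and 26 and 17 with cJun, and Zfp42 85 and 111 in OSK and 9 and 7 with cJun. In ESC, Tdh read 2803 and 3614 and Zfp42 1634 and 1567, above every day 3 library. Trh read 106 and 771 in ESC, below both OSK libraries at day 3.

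Srpx2 read 150 and 177 in MEF, so the day 3 OSK values lay below and the OSK+cJun values above the fibroblast level. Runx2 read 316 and 275 in MEF, near or above its OSK+cJun values at day 3 and far above those of OSK. Vcl read 7714 and 6922 in MEF, above both groups at day 3. Lpl was highest at day 1 in both courses, at 3617 and 3040 in OSK and 7733 and 8993 with cJun. With cJun, Chrna1 read 708 and 1364 at day 1 and 283 and 364 at day 7, and Pthlh read 675 and 881 at day 1 and 441 and 290 at day 7.

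**Figure D5:**
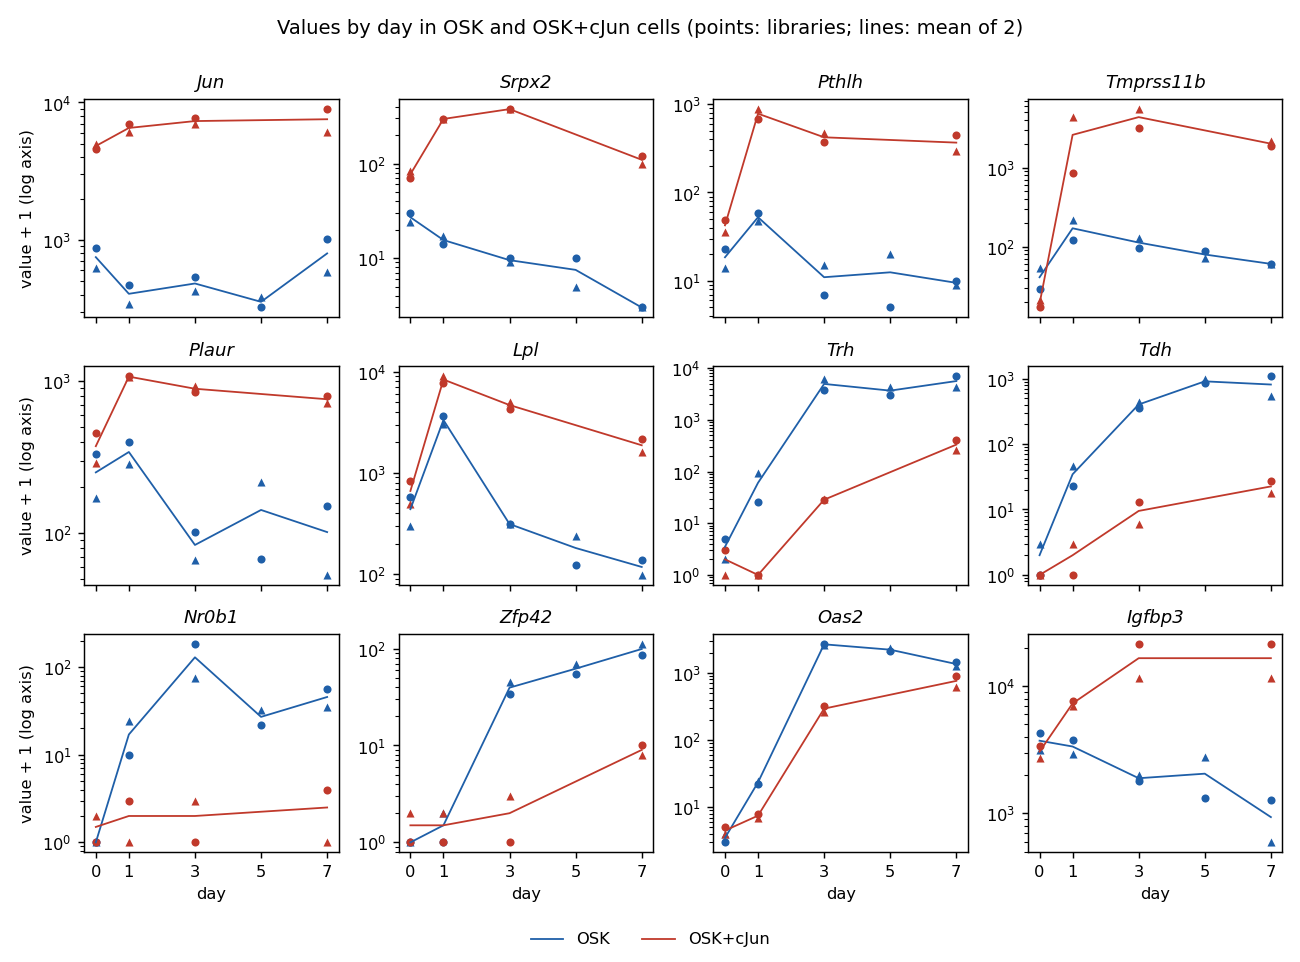
Deposited value + 1 on a log axis by day for 12 genes, with OSK in blue (days 0, 1, 3, 5 and 7) and OSK+cJun in red (days 0, 1, 3 and 7), points for libraries and lines for the mean of 2. At day 3 the red and blue points are apart in every panel, and Oas2 and Trh are lower in red than in blue at days 3 and 7.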

How the data were processed

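Total RNA was prepared with TRIzol and libraries with a TruSeq RNA kit for a NextSeq 500, per the labels' protocols. The submitters' processing notes name bcl2fastq, Bowtie2, RSEM and mm10, with no versions. The deposited values are a score: whole numbers per gene whose sorted values agree within 2 between any libraries, so the authors had made the distributions equal. The step is not given in the sources used here, depth is unknown, and values at the cap cannot show an increase. Strand was not marked by the kit, so overlapping antisense genes share reads.

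From these values log2(value + 1) was fitted with limma 3.58.1 in R 4.3.3 over all 26 libraries in 13 groups of 2 (13 residual degrees of freedom), with a trended, robust prior, for the 13202 genes with a value of 10 or more in at least 2 of the 4 day 3 libraries. Differences were called at a Benjamini-Hochberg adjusted p below 0.05 and a log2 difference of at least 1. No count test was used, and the fit was tested on simulated data. Day 3 was also set against days 0, 1 and 7 as differences of differences. With 1 library left out, the lone library of its group is assumed to vary like the other groups.

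Named genes were Jun, Pou5f1, Sox2, Klf4, Myc and Sap30, the 12 largest increases and decreases among called genes with no overlap and a mean of at least 50 in the higher group (gene models and pseudogenes left out), the 6 with the largest difference of means in each direction, up to 4 called genes per list (or 2 by mean where none was called) and up to 4 genes in each direction per difference between days. Other list members named were chosen after their values were seen. Some genes the rule names are not reported here. There were 45 lists, which share some members, and the genes compared and the lists were chosen with earlier results of these data known. Alternatives were other filters, pseudocounts, scalings, sets of libraries, priors, thresholds, a replicate block and leaving out each library. Promoter windows are RefSeq's (GRCm38.p6).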

Additional observations from a re-analysis of the deposited data

Results flagged for a closer look

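The cJun effect differed between days by limma's test of the difference itself, at an adjusted p below 0.05 and a log2 difference of at least 1, for 178 genes between days 3 and 0, 4 between days 3 and 1 and 1 between days 7 and 3. Values in brackets are the change of the effect in log2(value + 1). Among the genes named in the text, the effect was higher at day 3 than at day 0 for Ndst4 (6.32), Tmprss11b (6.28), Chrna1 (5.12), Nptx2 (5.05), Psca (4.52), Pthlh (4.12), Srpx2 (3.79), Igfbp3 (3.35), Lpl (3.28), Myof (2.08), Msmo1 (1.66) and Vcl (1.29). It was lower at day 3 than at day 0 for Btla (-8.64), Nr0b1 (-6.57), Trh (-6.53), Scn10a (-6.52), Dmrtc2 (-6.25), Gjb1 (-5.10), Zfp42 (-5.00), Trim9 (-4.87), Tdh (-4.71), Spock2 (-4.16), Gpa33 (-4.11), Esrp2 (-3.70), Carmil1 (-3.64), Oas2 (-3.56), Ifit1 (-2.83), Nuak2 (-2.70) and Tns3 (-1.99).

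Between days 3 and 1 the changes were Carmil1 (-3.42), Myof (2.08), Tns3 (-2.36) and Zfp42 (-4.50). Between days 7 and 3 the change was Oas2 (2.33), where a positive value is a smaller decrease at day 7. Nptx2, a neuronal pentraxin, and Ndst4, a heparan sulfate sulfotransferase, read 137 and 58 and 27 and 18 in the OSK+cJun libraries at day 3 and 4 and 2 and 2 and 1 in OSK. At day 0 Ndst4 read 23 and 1 in OSK+cJun and 51 and 65 in OSK, so its change rests in part on day 0 replicates that lie far apart.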

How the results depend on the processing

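The count of 1165 genes for the cJun effect at day 3 stayed within 1.5 times under each other filter, pseudocount, scaling, prior, threshold and set of libraries (943 with a pseudocount of 0.1 to 1545 on adjusted p alone), and with a replicate block it was 1269, or 1271 with a replicate block within each day, which was added after seeing the data. Without 1 library it was 705 to 809. The labels do not tie replicate numbers across groups. Deviations of same-numbered libraries correlated at 0.403, 0.304, 0.413 and 0.373 at days 0, 1, 3 and 7. Of the named genes, Eng at day 3 (adjusted p 0.0524), Fst at day 3 (0.0591), Tet1 at day 3 (0.0584), Timp2 at day 3 (0.0556) and Timp3 at day 3 (0.0686) were not called with the replicate block within each day, and each was called with the replicate block over all groups. Of 121 named genes called, 60 were called under every alternative and 62 without each library, and 0 reversed.

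The change between days 3 and 0 gave 108 genes with a pseudocount of 0.1, 340 with 10, 330 with the 16 course libraries and 68 to 104 without 1 library, against 178. Between days 3 and 1, against 4, there were 15 with no filter, 51 with a pseudocount of 10, 35 with 16 libraries, 18 with the compared libraries, 15 with no trend or robust prior, 22 with a replicate block, 24 with it within each day and 0 to 9 without 1 library. Between days 7 and 3, against 1, there were 13 with no filter, 4 with a filter at 50, 0 with a pseudocount of 0.1, 12 with 10, 19 with 16 libraries, 5 with the compared libraries, 3 with no trend or robust prior, 5 with a replicate block, 18 with it within each day and 0 to 25 without 1 library. The cause was not tested. Differences that were not called changed sign without 1 library, over which Des at day 3 ran from -0.37 to 1.09, Slc25a31 at day 3 from -2.38 to 2.32, Sycp1 at day 3 from -5.06 to 0.94 and H2-K1 at day 3 from -1.17 to 0.24. Pou5f1 at day 3 ran from -0.89 to 0, where the values left were all at the cap. Depth is unknown, so no limit from counting can be given.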
